A study of Mus musculus with 12 samples.

Results

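The 49 genes described here encode the presynaptic machinery that fills, docks, primes and fuses synaptic vesicles. They were chosen by name, from the families of synapsins, SNARE proteins and their regulators, synaptotagmins, priming factors, active zone scaffolds, Rab3 GTPases, vesicle membrane proteins and vesicular glutamate transporters. They are 49 of the 51912 gene lines in the files, and 49 of 49 passed the filter on low counts. RNA was measured in cortex of mice at postnatal day 0, in 12 libraries of ribosome-depleted total RNA made by ClickSeq, which attaches adapters to cDNA by click chemistry. The 4 libraries labelled control carry no further genotype in the labels. In 4 libraries labelled dKO-N, H3f3a and H3f3b, the genes for histone variant H3.3, are labelled as conditionally knocked out with Neurod6-Cre, a driver active in young postmitotic excitatory neurons. In 4 libraries labelled dKO-E the same genes are labelled as knocked out with Emx1-Cre, a driver active in progenitors of the dorsal cortex and so in the excitatory neurons and glia they produce. Cortical interneurons, vessels and microglia arise outside both lineages and are part of the tissue measured. Nothing in the labels ties a library to its own animal. The p-values therefore rest on library-to-library spread alone, part of which may be technical.

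At a presynaptic terminal, glutamate is loaded into vesicles by vesicular transporters, and synapsins tether the vesicles in a reserve pool. Scaffolds such as Bassoon, Piccolo, RIM and ELKS proteins mark the active zone, where Munc13 and CAPS proteins prime docked vesicles. Fusion is driven by the SNARE proteins and set off by calcium that binds to synaptotagmins. In newborn cortex the terminals are still being built, and many of these genes are rising toward their mature levels.

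Libraries held 722080 to 3502017 counts in genes, and the 49 genes took 0.994% to 1.10% of them. A floor of 3 counts equals 0.857 to 4.15 counts-per-million (CPM), with the shallowest libraries in dKO-N. H3f3a was at 17.7 and 16.4 CPM in control 1 and 3, below its 22.1 to 37.9 CPM in the knockouts, and at 117 and 121 CPM in control 2 and 4. H3f3b, the other targeted gene, was at 76.7 to 142 CPM in control, 111 to 146 for dKO-N and 167 to 180.1 for dKO-E, so it was not lower in either knockout and each dKO-E library lay above each control. The labels do not say which bases are deleted, so counts over the whole gene may miss a deletion. At H3f3a the libraries labelled control 1 and 3 thus did not exceed the knockouts, and at H3f3b neither knockout was lower than control. These levels do not bear the labels out. Every direction given is one between labels, and counts are also given without control 1 and 3. Markers of cortical excitatory neurons (10 genes) were present in all groups and summed to 3470 to 3891 CPM in control, 2418 to 3216 for dKO-N and 1685 to 2184 for dKO-E. The 4 choroid plexus markers summed to 3.92 CPM or less in any library. The 5 meninges markers summed to 2.66 to 4.13 CPM in control and 3.73 to 10.2 CPM for dKO-N. In dKO-E 1 to 4 they summed to 46.4, 15.0, 3.13 and 3.36 CPM. Tubb3, Neurod1, Sox2 and Neurog1 are listed at 0 in all 12 libraries.

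More of the presynaptic genes fell than rose in both knockouts. In dKO-N against control 15 fell and 1 rose, 32.7% of the 49, where 11.3% of the 11076 genes tested passed (5.04% higher and 6.29% lower; edgeR quasi-likelihood test, Benjamini-Hochberg adjusted p under 0.05). The members that fell were 30.6% of the 49. In dKO-E against control 18 fell and 3 rose, 42.9% of the 49, where 20.2% of all genes passed (10.1% higher and 10.1% lower), and the members that fell were 36.7%. The median log2 fold change of the 49 was -0.20 in dKO-N, beside 0.01 over all genes tested, and -0.17 in dKO-E, beside 0.01. Both comparisons use the same 4 control libraries. In this bulk tissue, fewer neurons and less RNA of a gene per neuron cannot be told apart. Beside these falls, 12 pan-neuronal markers summed to 6239 to 6727 CPM in control, 5303 to 5541 for dKO-N and 5112 to 5350 for dKO-E, and 6 and 7 of the 11 tested fell. The 12 radial glia markers summed to 1151 to 1294 CPM in control, 1449 to 2022 for dKO-N and 1359 to 1462 for dKO-E, with 5 and 4 of 9 tested higher. The 7 intermediate progenitor markers went from 40.3 to 54.8 CPM to 97.3 to 105 and 68.8 to 89.5 CPM, and interneuron markers ranged from 339 to 391 CPM in control, 335 to 397 for dKO-N and 308 to 444 for dKO-E. Summed markers of other cells also lay apart from control without overlap. Those of striatum (6 genes) summed to 65.0 to 79.6 CPM over the controls, 39.97 to 57.4 for dKO-N and 39.7 to 41.4 for dKO-E, and those of endothelium and mural cells (6 genes) to 89.0 to 96.6, 63.4 to 87.1 and 62.1 to 81.6 CPM. In dKO-E, oligodendrocyte precursor markers summed to 39.7 to 50.3 CPM against 61.8 to 76.98 in control, Cajal-Retzius markers to 229 to 343 against 415 to 481, and microglia markers to 17.6 to 23.5 against 9.54 to 14.7. Of 3 striatum genes tested 1 fell in dKO-N and 2 in dKO-E, and of 6 endothelial and mural genes 0 and 1 fell. In dKO-E 2 of 5 oligodendrocyte precursor genes and 2 of 4 Cajal-Retzius genes tested fell, and 1 of 2 microglia genes rose. Over all genes tested 11.3% passed in dKO-N and 20.2% in dKO-E. The part of the marker shifts in the presynaptic values was not tested.

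**Figure D1:**
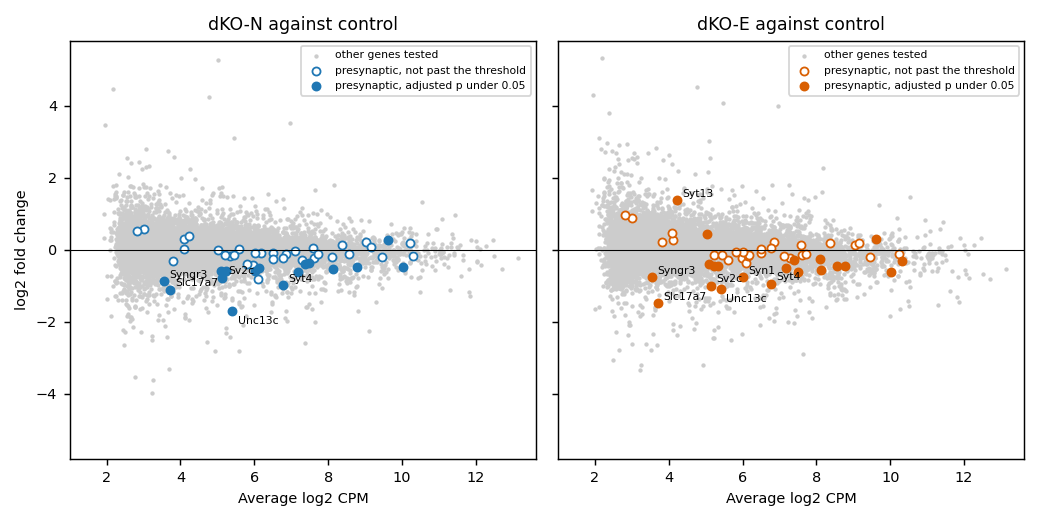
Log2 fold change against average log2 CPM for the 11076 genes tested (grey) in dKO-N (left) and dKO-E (right) against control, with the presynaptic genes in color, filled where the adjusted p was under 0.05. Of the filled points 15 of 16 lie below 0 on the left and 18 of 21 on the right, with Unc13c the lowest on the left and Slc17a7 on the right.

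The split depended on how libraries were scaled in dKO-E. With library totals in place of TMM factors 8 of the 49 were higher and 11 lower in dKO-E, so 42.1% of the calls were higher against 14.3%. With that scaling all genes together had a median of 0.14, 73.9% of all called genes were higher in place of 50.0%, and the median of the 49 was -0.04. Snap25 (log2 fold change 0.32), Syn2 (0.34), Syn3 (0.31), Vamp1 (1.01) and Syt17 (1.08) then passed as higher, and Syt5, Syngr3, Stx1a, Erc1, Cplx1, Unc13a and Erc2 no longer passed. In dKO-N library totals gave 2 higher and 13 lower (Ppfia2 gained at 0.24, Vamp2 and Cplx1 lost), with 57.8% of all called genes higher in place of 44.5%. Without control 1 and 3, 11 of the 49 passed in dKO-N, all lower, and 3 were higher and 11 lower in dKO-E. All genes then gave 299 higher and 457 lower in dKO-N, and 558 and 657 in dKO-E.

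**Figure D2:**
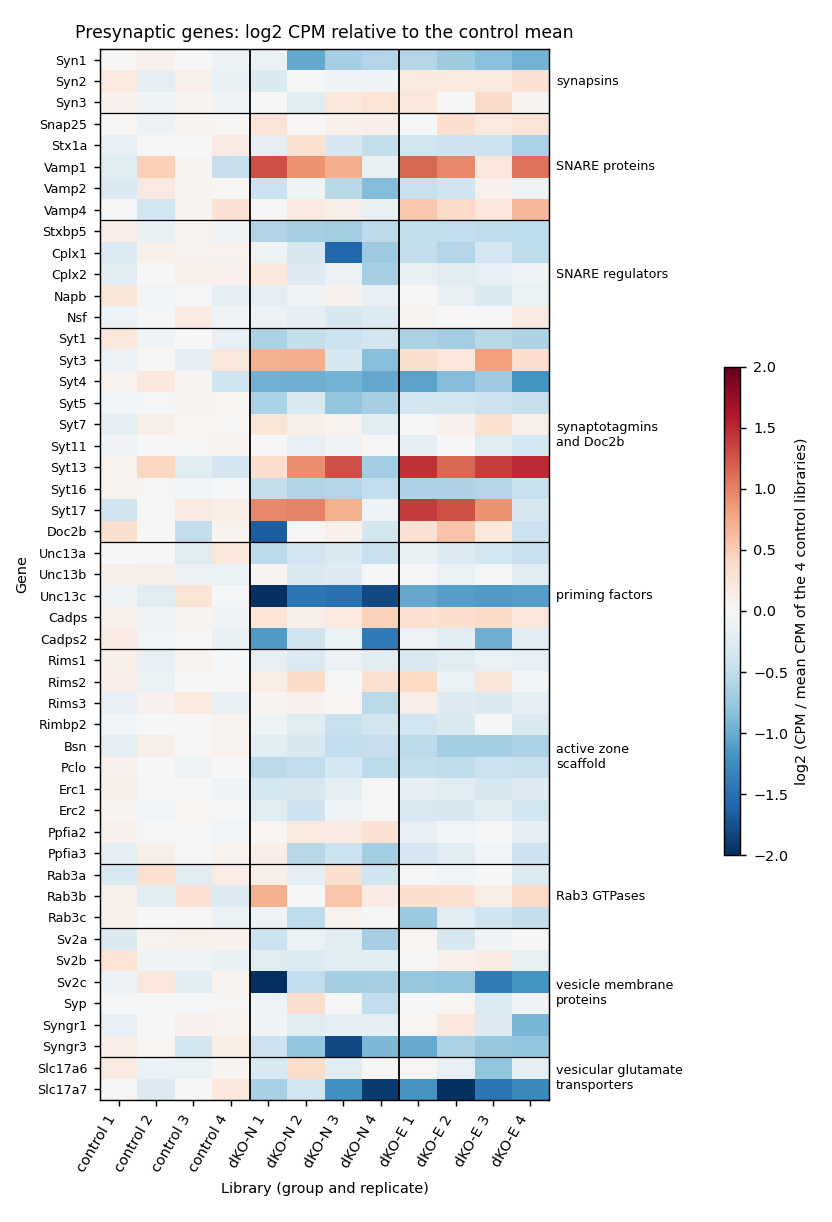
Heatmap of log2 of each library's CPM over the mean of the 4 control libraries, for the 49 genes (vertical axis, grouped by role) in the 12 libraries (horizontal axis), with colors limited to -2 to 2. The bands of Unc13c, Syt4, Sv2c and Slc17a7 are blue in all 8 knockout libraries, and that of Syt13 is red in all 4 dKO-E libraries but blue in dKO-N 4.

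Of the vesicular glutamate transporters, Slc17a7 fell in both knockouts and Slc17a6 did not pass. Slc17a7 (VGLUT1), the transporter that cortical excitatory neurons take up as they mature, was at 19.4, 15.98, 19.0 and 22.2 CPM across control 1 to 4, against 12.2, 14.9, 8.27 and 5.11 for dKO-N 1 to 4 and 8.49, 4.46, 7.03 and 7.83 for dKO-E 1 to 4. All 8 knockout libraries lay below the lowest control, with dKO-N 4 and dKO-E 2 the lowest, and counts in them were as few as 6. Slc17a7 fell 2.17-fold in dKO-N (log2 fold change -1.12, SE 0.289, edgeR adjusted p = 0.00727) and 2.82-fold in dKO-E (-1.49, SE 0.269, adjusted p = 6.6e-05). The call in dKO-N was lost without dKO-N 4 (log2 fold change -0.66, adjusted p = 0.185) and without control 1 and 3 (adjusted p = 0.07), while that in dKO-E held in each leave-out. Slc17a6 (VGLUT2), the transporter typical of thalamic and of immature cortical neurons, was at 56.9, 45.8, 45.8 and 52.2 CPM across control 1 to 4, against 40.8, 64.3, 42.7 and 50.8 for dKO-N 1 to 4 and 50.9, 44.98, 28.9 and 43.6 for dKO-E 1 to 4. Its groups overlapped and it did not pass in dKO-N (0.01, adjusted p = 0.984, 95% interval -0.30 to 0.32) or dKO-E (-0.28, adjusted p = 0.203, -0.58 to 0.02).

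The synapsins, which coat vesicles and hold them in the reserve pool, gave 1 fall among 3 genes in each knockout. Over all genes tested 6.29% fell in dKO-N and 10.1% in dKO-E. Syn1 was at 84.4, 87.9, 83.8 and 76.5 CPM across control 1 to 4, against 76.2, 41.03, 52.4 and 55.6 for dKO-N 1 to 4 and 55.5, 50.6, 46.5 and 43.1 for dKO-E 1 to 4. Each knockout library lay below each control library, although dKO-N 1 was within 1 CPM of control 4. Syn1 fell 1.503-fold in dKO-N (log2 fold change -0.59, edgeR adjusted p = 0.00243) and 1.71-fold in dKO-E (-0.77, adjusted p = 1.71e-05), in every leave-out of a single library. Syn1 (1475 counts over all libraries) overlaps Araf, a kinase gene on the opposite strand with 2549 counts, and whether counting used strand is not stated. Syn2 was at 128, 96.9, 119.6 and 100.2 CPM across control 1 to 4, against 91.2, 108, 105 and 106 for dKO-N 1 to 4 and 127, 127, 128 and 136 for dKO-E 1 to 4. The dKO-E libraries were at the top of the control range or above it, and Syn2 did not pass in dKO-N (-0.11, adjusted p = 0.613) or dKO-E (0.21, adjusted p = 0.141); without control 1 and 3 it was higher in dKO-E (0.39, adjusted p = 0.0436). Syn3, the synapsin with the highest expression per exonic kb of the 3 in control, was at 568, 503, 554 and 506 CPM across control 1 to 4, against 536, 458, 618 and 645 for dKO-N 1 to 4 and 622, 537, 698 and 553 for dKO-E 1 to 4. Its groups overlapped, with log2 fold changes of 0.09 and 0.18 (adjusted p = 0.684 and 0.225). Syn3 overlaps Timp3 on the opposite strand, which had 716 counts over all libraries against 13349 for Syn3.

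For these pairs, in which one gene fell and a close relative did not pass, the bases before the RefSeq start (build GRCm38.p6) are shown, since start regions are where chromatin and transcription factors act on a gene. Capitals mark the E-box CANNTG, the letters read by bHLH factors such as the NeuroD family, or in Syn1 the letters TTCAGCACC, the left part of the RE1 element read by the repressor REST. The windows run 250 bases before the start, except in Syn1, where the 164 bases farthest from the start are shown because the rest is exon in GENCODE M21.
Slc17a7 chr7:45163671-45163920: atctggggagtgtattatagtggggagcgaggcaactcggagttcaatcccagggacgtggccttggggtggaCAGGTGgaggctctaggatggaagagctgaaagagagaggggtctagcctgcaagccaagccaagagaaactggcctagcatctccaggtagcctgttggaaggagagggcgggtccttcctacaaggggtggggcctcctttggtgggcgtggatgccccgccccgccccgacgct
Slc17a6 chr7:51621580-51621829: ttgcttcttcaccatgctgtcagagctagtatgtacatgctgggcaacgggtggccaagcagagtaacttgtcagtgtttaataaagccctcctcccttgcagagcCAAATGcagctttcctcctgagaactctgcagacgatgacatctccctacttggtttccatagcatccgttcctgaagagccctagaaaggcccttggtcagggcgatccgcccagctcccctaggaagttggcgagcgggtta
Syn1 chrX:20921005-20921168: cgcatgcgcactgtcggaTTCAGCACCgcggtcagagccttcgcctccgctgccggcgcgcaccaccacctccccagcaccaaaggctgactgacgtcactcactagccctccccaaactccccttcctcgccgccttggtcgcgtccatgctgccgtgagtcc
Syn2 chr6:115134652-115134901: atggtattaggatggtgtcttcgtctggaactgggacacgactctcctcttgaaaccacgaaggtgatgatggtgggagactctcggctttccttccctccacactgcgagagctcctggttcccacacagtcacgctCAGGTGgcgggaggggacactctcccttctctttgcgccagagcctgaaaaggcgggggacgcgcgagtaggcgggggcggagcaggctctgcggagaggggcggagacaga
The Slc17a7 window (plus strand) held 1 E-box, 177 bases before the start, and that of Slc17a6 (plus strand) 1 at 144 bases. Syn2 (plus strand) had 1 at 112 bases, in a window that overlaps an exon of the noncoding gene Gm17733. The Syn1 window (minus strand) had no E-box, and these RE1 letters began 232 bases before the start. Over both strands CANNTG occurred in 66.2% of the 32851 promoter windows. The 38 members with a listed promoter have 46 windows, and CANNTG was in 35 of these 46, from 30 members. CAGATG, one form of CANNTG, was in 14.4% of all windows and in 5 of the 46. TTCAGCACC, which does not contain CANNTG, was in 0.301% of all windows and in 2 of the 46, those of Syn1 and Ppfia3. Matches of letters are a description and not sites of binding.

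**Figure D3:**
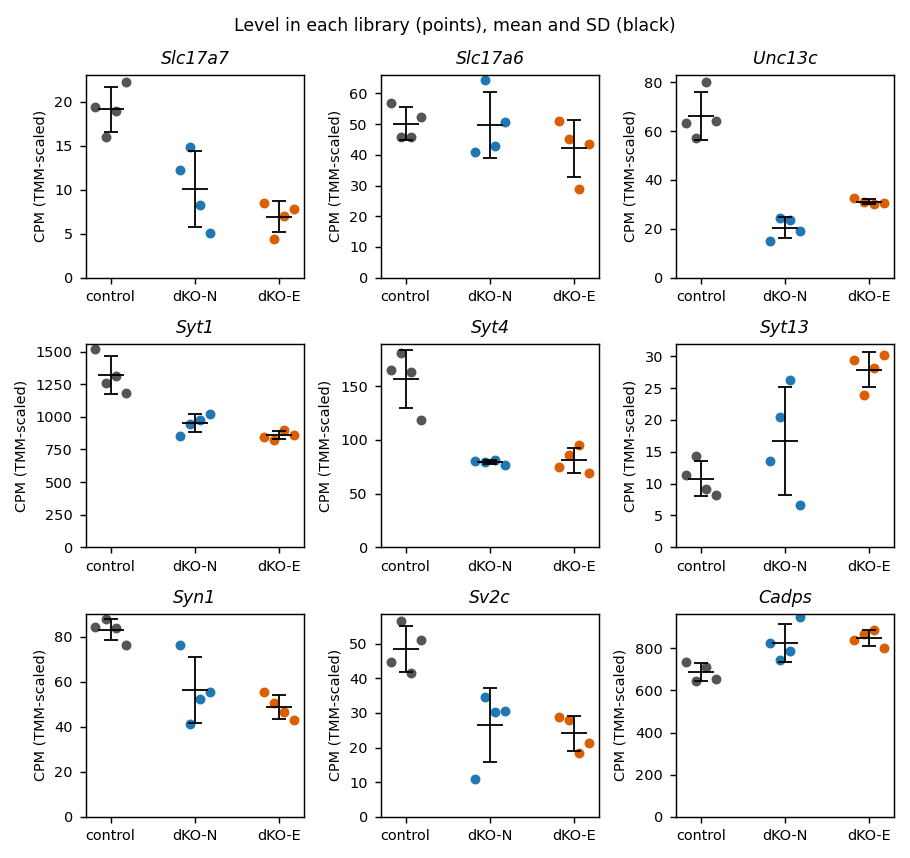
CPM (vertical axis, TMM-scaled) of 9 presynaptic genes in each library (points) by group (horizontal axis), with the mean and SD of 4 libraries in black. Slc17a7, Unc13c, Syt1, Syt4, Syn1 and Sv2c are lower in both knockouts without overlap, Slc17a6 overlaps, Syt13 lies above control in dKO-E, and Cadps is higher in both.

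Ratios within a library do not depend on how libraries are scaled. On CPM per exonic kb, Slc17a7 to Slc17a6 was 0.383 ± 0.0438 in control, 0.207 ± 0.0833 for dKO-N and 0.172 ± 0.0592 for dKO-E (SD, n = 4, exact permutation p = 0.0286 for each knockout, 0.0458 adjusted over 8 ratio tests). That p is the smallest that 4 against 4 libraries can give, and all 8 knockout libraries were below the lowest control ratio. Syn1 to Syn2 was 1.61 ± 0.229 in control and 0.808 ± 0.108 in dKO-E (exact permutation p = 0.0286, adjusted 0.0458). In dKO-N it was 1.19 ± 0.415, with dKO-N 1 at 1.78 inside the control range (exact permutation p = 0.114, adjusted 0.114). These gene pairs, and those of Sv2 and Vamp genes below, were chosen after their values were seen, and a ratio shows unequal change without saying which gene moved.

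**Figure D4:**
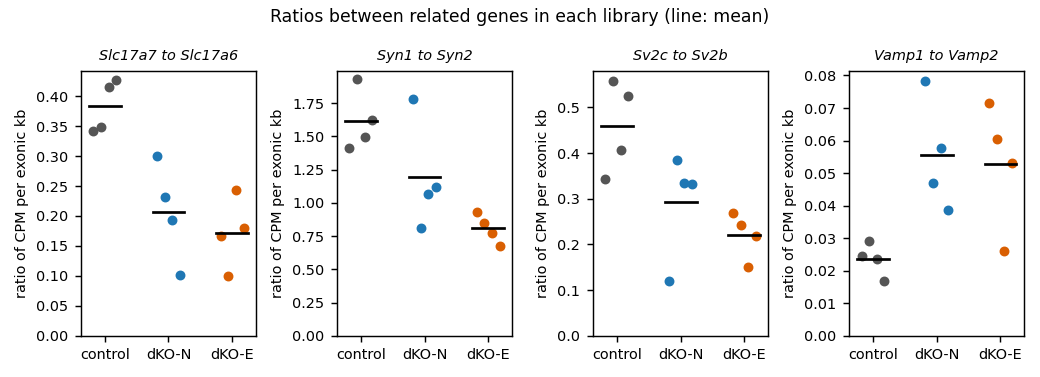
Ratio of CPM per exonic kb between 2 related genes (vertical axes, each starting at 0) in each library (points) by group, with a line at the mean of 4 libraries. Slc17a7 to Slc17a6 is lower in all 8 knockout libraries, and Syn1 to Syn2 in all 4 dKO-E libraries.

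Among the SNARE proteins, which zip vesicle and plasma membrane together, 1 of 5 fell in dKO-N, and 1 fell and 1 rose in dKO-E. Over all genes tested 11.3% passed in dKO-N and 20.2% in dKO-E. Snap25, a plasma membrane SNARE, was at 312, 283, 319.6 and 310.5 CPM across control 1 to 4, against 365, 312, 328 and 336 for dKO-N 1 to 4 and 296, 387, 349 and 367 for dKO-E 1 to 4. The groups overlapped and Snap25 did not pass in either knockout (log2 fold change 0.13 and 0.19, edgeR adjusted p = 0.459 and 0.13). Vamp2 (synaptobrevin 2), the main vesicle SNARE of the forebrain, was at 64.98, 89.5, 82.1 and 80.1 CPM across control 1 to 4, against 58.5, 74.6, 53.8 and 43.6 for dKO-N 1 to 4 and 58.1, 60.4, 84.4 and 74.95 for dKO-E 1 to 4. It fell in dKO-N (-0.51, adjusted p = 0.0254), with dKO-N 2 above control 1, and did not pass in dKO-E (-0.17, adjusted p = 0.425). The Vamp2 call was lost without any one of control 2, 3 and 4 and dKO-N 3 and 4 (adjusted p = 0.0539 to 0.254), and without dKO-N 4 the value was -0.31. Vamp1, the form more common in hindbrain and spinal cord, was at 4.24, 6.92, 5.18 and 3.62 CPM across control 1 to 4, against 12.2, 9.32, 8.27 and 4.51 for dKO-N 1 to 4 and 11.1, 9.72, 5.86 and 10.6 for dKO-E 1 to 4. It had 6 to 24 counts in a library and did not pass (0.58, adjusted p = 0.391 in dKO-N, 0.88, adjusted p = 0.0596 in dKO-E). The ratio of Vamp1 to Vamp2 per exonic kb was 0.0235 ± 0.00498 in control, 0.0554 ± 0.0172 for dKO-N (exact permutation p = 0.0286, adjusted 0.0458) and 0.0528 ± 0.0194 for dKO-E (exact permutation p = 0.0571, adjusted 0.0653). The plasma membrane SNARE Stx1a (syntaxin 1A) ranged over 40.6 to 50.6 CPM over the controls, 32.7 to 55.95 for dKO-N and 29.1 to 34.6 for dKO-E. It fell in dKO-E (-0.46, adjusted p = 0.0278), did not pass in dKO-N (-0.18, adjusted p = 0.562), and the knockouts did not differ past the threshold (-0.27, adjusted p = 0.347). Vamp4, a SNARE of endosomes and of bulk vesicle retrieval, rose in dKO-E (0.44, adjusted p = 0.0434), where it overlapped control, with ranges of 21.3 to 34.1 CPM over the controls, 25.2 to 31.7 for dKO-N and 32.4 to 43.6 for dKO-E. The Stx1a call was lost without any one of control 3 and 4 and dKO-E 2, 3 and 4 (adjusted p = 0.0517 to 0.0884), and that of Vamp4 without any one of control 1, 2 and 3 and dKO-E 1, 2 and 4 (adjusted p = 0.0691 to 0.171).

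Of the 5 regulators of SNARE assembly and disassembly, 2 fell in each knockout, Stxbp5 and Cplx1. Over all genes tested 6.29% fell in dKO-N and 10.1% in dKO-E. Stxbp5 (tomosyn), which binds syntaxin and SNAP-25 and holds back assembly, was at 196, 161, 189 and 172 CPM across control 1 to 4, against 118, 114, 110.3 and 124 for dKO-N 1 to 4 and 129, 127, 127 and 126 for dKO-E 1 to 4. Neither knockout overlapped control. Stxbp5 fell 1.53-fold in dKO-N (-0.61, SE 0.0988, edgeR adjusted p = 1.95e-05) and 1.41-fold in dKO-E (-0.50, SE 0.0926, adjusted p = 9.47e-05), in each leave-out. Cplx1 (complexin 1), which clamps and then aids the assembled SNARE complex, was at 37.4, 48.5, 47.5 and 47.5 CPM across control 1 to 4, against 42.2, 36.4, 15.2 and 27.3 for dKO-N 1 to 4 and 32.7, 29.98, 35.6 and 31.9 for dKO-E 1 to 4. Control 1 lay below the other controls, and dKO-N 3 was the lowest library. Cplx1 fell in dKO-N (-0.59, adjusted p = 0.0247) and also in dKO-E (-0.46, adjusted p = 0.0363). Those calls were lost without any one of control 2, 3 and 4 and dKO-N 3 and 4 for dKO-N (adjusted p = 0.0609 to 0.126), and of control 2, 3 and 4 and dKO-E 1, 2 and 4 for dKO-E (adjusted p = 0.0589 to 0.111). The related Cplx2, at 179.8 to 226 CPM over the controls, 132 to 242 for dKO-N and 180.3 to 198 for dKO-E, did not pass (adjusted p = 0.283 and 0.395). Neither did Nsf, the ATPase that takes spent SNARE complexes apart (adjusted p = 0.193 and 0.818), nor its adaptor Napb (adjusted p = 0.683 and 0.364).

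Synaptotagmins bind membranes and, in many members, calcium. Of 9 synaptotagmins and Doc2b, 4 fell in dKO-N, and 4 fell and 1 rose in dKO-E. Over all genes tested 11.3% passed in dKO-N and 20.2% in dKO-E. Syt1, the calcium sensor of fast synchronous release, was at 1524, 1263, 1314 and 1184 CPM across control 1 to 4, against 856, 947, 979 and 1021 for dKO-N 1 to 4 and 848, 825, 899 and 861 for dKO-E 1 to 4. Every knockout library was below the lowest control, and Syt1 fell 1.39-fold in dKO-N (-0.47, SE 0.0910, edgeR adjusted p = 0.000261) and 1.54-fold in dKO-E (-0.62, SE 0.0902, adjusted p = 1.7e-06). Syt4, which traffics on dense-core vesicles and does not bind calcium in the manner of Syt1, was at 165, 180.5, 163 and 118 CPM across control 1 to 4, against 80.3, 79.3, 81.3 and 76.9 for dKO-N 1 to 4 and 74.5, 85.5, 94.95 and 68.8 for dKO-E 1 to 4. The dKO-N libraries lay within 5 CPM of each other, all 8 knockout libraries were below control 4, and Syt4 fell 1.99-fold (log2 fold change -0.99, adjusted p = 1.78e-07) and 1.92-fold (-0.94, adjusted p = 6.09e-08). Syt16, a synaptotagmin without a transmembrane segment, was at 370.1, 357, 339.9 and 345 CPM across control 1 to 4, against 253, 233, 234 and 250.2 for dKO-N 1 to 4 and 231, 230.1, 236 and 261 for dKO-E 1 to 4. No knockout library reached the lowest control, and Syt16 fell in dKO-N (-0.54, adjusted p = 2.06e-05) and also in dKO-E (-0.56, adjusted p = 3.32e-06). The calls of Syt1, Syt4 and Syt16 held in each leave-out and without control 1 and 3. Syt5, another calcium-binding synaptotagmin, was at 38.5, 38.9, 41.9 and 41.3 CPM across control 1 to 4, against 25.9, 32.6, 23.4 and 25.2 for dKO-N 1 to 4 and 30.7, 31.2, 30.1 and 29.1 for dKO-E 1 to 4. Neither knockout overlapped control, and Syt5 fell in dKO-N (-0.59, adjusted p = 0.0107; 0.0738 without dKO-N 4) and also in dKO-E (-0.40, adjusted p = 0.0393). In dKO-E its call was lost without any one of control 1 to 4 or dKO-E 1 to 4 (adjusted p = 0.0599 to 0.0924).

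Syt13, which lacks the residues that bind calcium in other synaptotagmins, went the other way. Syt13 was at 11.3, 14.4, 9.07 and 8.27 CPM across control 1 to 4, against 13.6, 20.5, 26.2 and 6.61 for dKO-N 1 to 4 and 29.4, 23.9, 28.1 and 30.2 for dKO-E 1 to 4. All dKO-E libraries were above every control, whereas dKO-N spread from below control to the level of dKO-E. Syt13 rose 2.58-fold in dKO-E (log2 fold change 1.37, SE 0.255, edgeR adjusted p = 0.000155), in each leave-out, and did not pass in dKO-N (0.37, SE 0.314, adjusted p = 0.543). The value in dKO-N rested on single libraries: it was 0.90 without dKO-N 4, where it passed as higher (adjusted p = 0.0281), 0.13 without dKO-N 2 and 0.08 without dKO-N 3. Of those that did not pass, Syt7, the sensor of slow and asynchronous release, ranged over 162 to 199.7 CPM over the controls, 158 to 218 for dKO-N and 182 to 227 for dKO-E (adjusted p = 0.895 and 0.412). Syt11 ranged over 137 to 149.8 CPM over the controls, 129 to 147 for dKO-N and 114 to 146 for dKO-E (adjusted p = 0.854 and 0.199). Syt3, Syt17 and Doc2b, a soluble calcium sensor, were low, at 3.18 to 25.01 CPM over all libraries. The highest of their log2 fold changes was that of Syt17 in dKO-E (0.96, adjusted p = 0.0563).

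Among 5 priming factors 2 fell and 1 rose in each knockout, beside 11.3% (dKO-N) and 20.2% (dKO-E) of all genes that passed. Unc13c had the largest fall of the 49 in dKO-N. Unc13c (Munc13-3), best known from cerebellar synapses, was at 63.2, 56.98, 79.9 and 64.1 CPM across control 1 to 4, against 14.97, 24.2, 23.4 and 18.9 for dKO-N 1 to 4 and 32.7, 30.8, 30.1 and 30.8 for dKO-E 1 to 4. The 4 dKO-E libraries were nearly alike, all of them above all of dKO-N, and neither group reached control. Unc13c fell 3.28-fold in dKO-N (log2 fold change -1.71, SE 0.166, edgeR adjusted p = 6.59e-10) and 2.13-fold in dKO-E (-1.09, SE 0.1399, adjusted p = 1.5e-07), and both calls held in each leave-out. Unc13a (Munc13-1), the principal priming factor of excitatory synapses, ranged over 163 to 225 CPM over the controls, 135 to 158 for dKO-N and 142 to 174 for dKO-E. It fell in dKO-N (-0.41, adjusted p = 0.00692) and also in dKO-E (-0.30, adjusted p = 0.0289), the latter with overlap and lost without any one of control 1, 2 and 4 and dKO-E 2, 3 and 4 (adjusted p = 0.0518 to 0.145). Unc13a overlaps Colgalt1 on the opposite strand. Unc13b (Munc13-2) did not pass (-0.11 and -0.11, adjusted p = 0.559 and 0.45). Cadps (CAPS1), which primes dense-core and synaptic vesicles, rose in each knockout, over ranges of 645 to 736 CPM over the controls, 742 to 949 for dKO-N and 801 to 885 for dKO-E. Neither knockout overlapped control, with log2 fold changes of 0.27 (adjusted p = 0.0471) in dKO-N and 0.30 (adjusted p = 0.0127) in dKO-E. The call in dKO-N was lost without any one of control 2, 3 and 4, dKO-N 1, 3 and 4 and dKO-E 2, 3 and 4 (adjusted p = 0.0602 to 0.202), and that in dKO-E without control 2 (adjusted p = 0.0633) or 4 (0.0516). Its paralog Cadps2 (CAPS2), at 74.9 to 93.2 CPM over the controls, 31.2 to 75.8 for dKO-N and 42.2 to 77.7 for dKO-E, did not pass (-0.81, adjusted p = 0.0717 and -0.36, adjusted p = 0.314), and its dKO-N libraries spread more than 2-fold.

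At the active zone, 2 of 10 scaffold genes fell in dKO-N and 4 of 10 in dKO-E by the edgeR test. Over all genes tested 6.29% fell in dKO-N and 10.1% in dKO-E. At an unadjusted p under 0.05 the scaffold genes numbered 8 and 6 of 10, in both directions together, beside 2561 and 3508 of the 11076 genes tested. Bsn (Bassoon), a giant scaffold that organises the active zone, was at 195, 239, 219 and 232 CPM across control 1 to 4, against 189, 177, 157 and 160.1 for dKO-N 1 to 4 and 154, 138, 138 and 142 for dKO-E 1 to 4. Groups did not overlap, dKO-E lay lowest, and Bsn fell in dKO-N (-0.38, SE 0.0970, adjusted p = 0.00654) and also in dKO-E (-0.63, SE 0.0935, adjusted p = 2.36e-06). Pclo (Piccolo), its partner of like size, was at 567, 535, 501 and 539.9 CPM across control 1 to 4, against 367, 382, 422 and 371 for dKO-N 1 to 4 and 387, 378, 397 and 393 for dKO-E 1 to 4. All knockout libraries were below all controls, and Pclo fell in dKO-N (-0.48, adjusted p = 0.000111) and dKO-E (-0.46, adjusted p = 7.59e-05). Both genes held their calls in each leave-out and without control 1 and 3. The ELKS scaffolds Erc1 (283 to 327 CPM over the controls, 235 to 294 for dKO-N and 242 to 264 for dKO-E) and Erc2 (1363 to 1461 CPM over the controls, 1066 to 1379 for dKO-N and 1097 to 1211 for dKO-E) fell in dKO-E (-0.25, adjusted p = 0.0424 and -0.30, adjusted p = 0.0128). The Erc1 call was lost without any one of control 1, 2 and 3 and dKO-E 1 to 4 (adjusted p = 0.0521 to 0.145) and the Erc2 call without dKO-E 4 (adjusted p = 0.0516). Rims1, Rims2, Rims3 and Rimbp2, the RIM proteins that tether calcium channels and their binding partner, did not pass in either knockout, with log2 fold changes from -0.29 (Rimbp2 in dKO-N, adjusted p = 0.0551) to 0.22 (Rims2 in dKO-N, adjusted p = 0.204). Of the liprin-alpha genes, Ppfia3 did not pass (adjusted p = 0.0543 and 0.221). Ppfia2, a liprin that recruits active zone proteins, was at 1247, 1143, 1189 and 1133 CPM across control 1 to 4, against 1208, 1344, 1318 and 1433 for dKO-N 1 to 4 and 1054, 1131, 1150 and 1024 for dKO-E 1 to 4. It did not pass against control (adjusted p = 0.226 and 0.398), and its dKO-N libraries were all above its dKO-E libraries.

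The Rab3 GTPases bind vesicles to RIM proteins. Rab3c ranged over 391 to 458 CPM over the controls, 301 to 451 for dKO-N and 257 to 367 for dKO-E and fell in dKO-E (log2 fold change -0.44, edgeR adjusted p = 0.00206; 0.0647 without control 1 and 3), but did not pass in dKO-N (-0.13, adjusted p = 0.523). The difference between the knockouts was -0.31 (adjusted p = 0.0721). Rab3a (-0.08 and -0.06) and Rab3b (0.29 and 0.26) did not pass, with adjusted p from 0.412 to 0.82.

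Of 6 vesicle membrane proteins Sv2c and Syngr3 fell in both knockouts, beside 6.29% (dKO-N) and 10.1% (dKO-E) of all genes that fell. The SV2 proteins are transporter-like vesicle glycoproteins that also receive botulinum toxins. Sv2c, the least widespread of them in the brain, was at 44.9, 56.5, 41.5 and 51.1 CPM across control 1 to 4, against 10.9, 34.5, 30.3 and 30.6 for dKO-N 1 to 4 and 28.7, 27.96, 18.4 and 21.2 for dKO-E 1 to 4. All 8 knockout libraries lay below the lowest control and dKO-N 1 was far below the rest of its group. Sv2c fell in dKO-N (-0.77, SE 0.192, edgeR adjusted p = 0.00529) and also in dKO-E (-1.01, SE 0.181, adjusted p = 6.66e-05), in each leave-out. Sv2a was at 49.4, 63.4, 64.8 and 64.6 CPM across control 1 to 4, against 44.9, 55.02, 52.4 and 38.1 for dKO-N 1 to 4 and 62.05, 48.6, 57.8 and 60.96 for dKO-E 1 to 4. Sv2b was at 113, 87.3, 88.1 and 84.2 CPM across control 1 to 4, against 78.9, 77.4, 78.6 and 79.6 for dKO-N 1 to 4 and 92.1, 99.7, 105 and 83.9 for dKO-E 1 to 4. Control 1 was the lowest control for Sv2a and the highest for Sv2b, and neither gene passed (Sv2a adjusted p = 0.0775 and 0.729, Sv2b 0.195 and 0.894). The ratio of Sv2c to Sv2b per exonic kb was 0.458 ± 0.101 in control, 0.293 ± 0.118 for dKO-N (exact permutation p = 0.0571, adjusted 0.0653) and 0.221 ± 0.0505 for dKO-E (exact permutation p = 0.0286, adjusted 0.0458). Syngr3 (synaptogyrin 3), a tetraspan vesicle protein, was at 15.9, 14.9, 11.2 and 16.02 CPM across control 1 to 4, against 10.9, 8.39, 4.13 and 7.81 for dKO-N 1 to 4 and 7.18, 9.32, 8.597 and 8.39 for dKO-E 1 to 4. No knockout library reached the lowest control, dKO-N 3 held 3 counts, and Syngr3 fell in dKO-N (-0.88, adjusted p = 0.0313) and also in dKO-E (-0.77, adjusted p = 0.0231). These calls were lost without any one of control 1, 2 and 4 and dKO-N 3 and 4 for dKO-N (adjusted p = 0.0621 to 0.108), and of control 1, 2 and 4 and dKO-E 1 and 3 for dKO-E (adjusted p = 0.0507 to 0.0757). Syp (synaptophysin), a standard marker of vesicles, ranged over 91.1 to 94.03 CPM over the controls, 65.8 to 117 for dKO-N and 76.6 to 95.2 for dKO-E and did not pass (-0.09 and -0.08, adjusted p = 0.746 and 0.695). Syngr1, which overlaps the ribosomal gene Rpl3 on the opposite strand (2208 counts against 839), did not pass (adjusted p = 0.653 and 0.557).

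**Figure D5:**
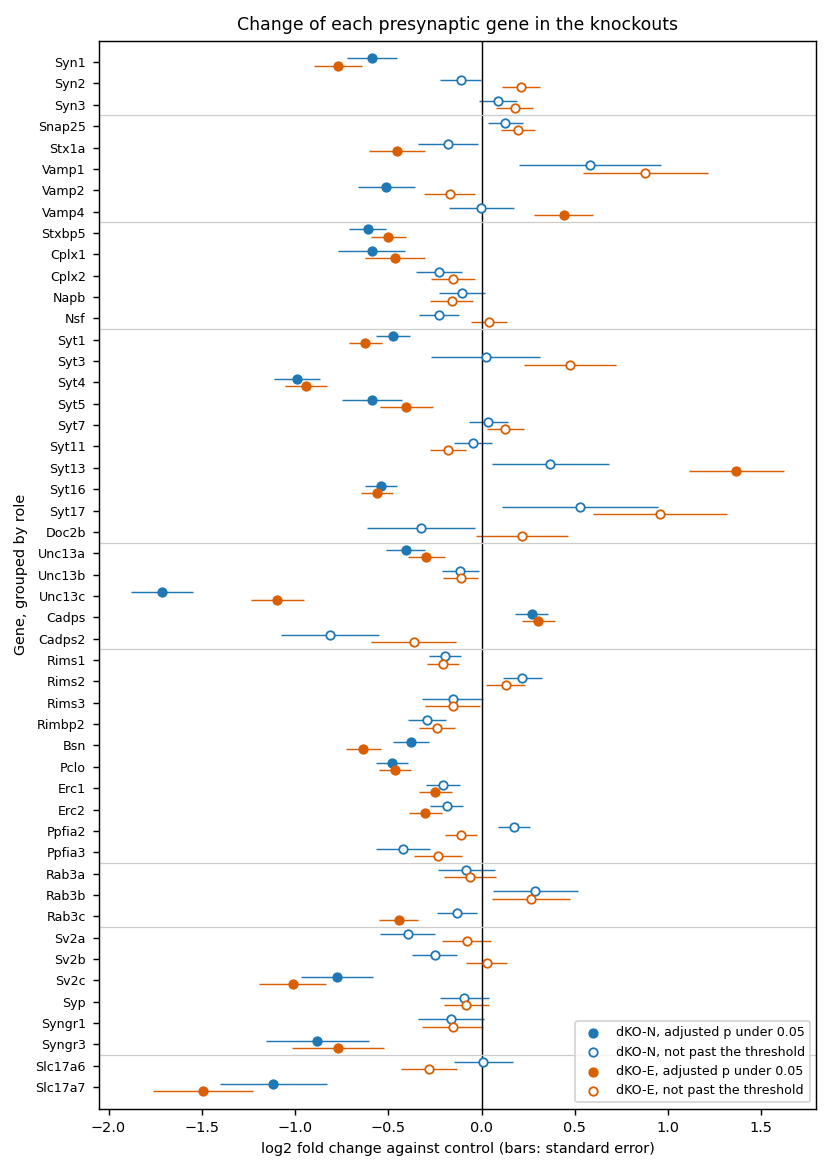
Log2 fold change against control (horizontal axis, bars are standard errors) of the 49 genes (vertical axis, grouped by role) in dKO-N (blue) and dKO-E (orange), filled where the adjusted p was under 0.05. Unc13c is lowest in dKO-N at -1.71 and Slc17a7 in dKO-E at -1.49, and Syt13 is the highest filled point, at 1.37 in dKO-E.

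Of the 16 calls in dKO-N 10 held whichever single library was left out, and of the 21 in dKO-E 12 did. Without control 1 and 3, Syt5, Syngr3, Cplx1, Cadps and Slc17a7 no longer passed in dKO-N (edgeR adjusted p = 0.0504 to 0.0848), and Syt5, Syngr3, Stx1a, Rab3c, Vamp4, Erc1, Cplx1 and Erc2 no longer passed in dKO-E (0.0647 to 0.324). Other genes did not pass in the TMM-scaled fit of all 12 libraries but did when 1 library was left out. In dKO-N these were, beside Syt13, Cadps2 (without dKO-N 2 or 3 or dKO-E 3), Ppfia3 (control 1 or dKO-N 1), Sv2a (control 1 or dKO-N 2), Cplx2 and Rimbp2 (dKO-N 1) and Erc1 (dKO-N 4), all lower (adjusted p = 0.00433 to 0.0397). In dKO-E, Rimbp2 (without dKO-E 3 or dKO-N 4) and Rims1 (dKO-N 4) passed as lower (adjusted p = 0.0318 to 0.0478). Snap25 (without dKO-E 1), Syt17 (dKO-E 4 or dKO-N 4) and Vamp1 (control 2, dKO-E 3 or dKO-N 4) passed as higher in dKO-E (adjusted p = 0.0181 to 0.0499). By length, the 15 that fell in dKO-N had a median gene length of 60.5 kb (3.90 to 513 kb), against 64.1 kb for the 33 that did not pass. In dKO-E the 18 that fell had a median of 120 kb and the 28 that did not pass 56.6 kb.

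The knockouts were also compared with each other. In dKO-E against dKO-N 2 of the 49 were higher and 1 lower, 6.12% of the 49, where 6.84% of all genes passed (3.11% higher and 3.73% lower), a share near the background. Syt13 was higher in dKO-E (1.00, SE 0.279, edgeR adjusted p = 0.0263), though dKO-N 3 overlapped dKO-E. Its difference was 0.46 without dKO-N 4 (adjusted p = 0.367), and the call was also lost without any one of dKO-E 1, 3 and 4 (adjusted p = 0.052 to 0.0787). Unc13c was higher in dKO-E (0.62, SE 0.182, adjusted p = 0.0321), with no overlap, and its call was lost without any one of dKO-N 1 and 4 and dKO-E 1 to 4 (adjusted p = 0.0574 to 0.192). Ppfia2 was lower in dKO-E (-0.28, SE 0.0866, adjusted p = 0.0391), and its call was lost without any one of control 2, 3 and 4, dKO-N 3 and 4 and dKO-E 1 to 4 (adjusted p = 0.0516 to 0.141). With library totals the 3 calls were Syt13, Unc13c and Syn2, all higher in dKO-E, 100% in place of 66.7%, while 65.4% of all called genes were higher in place of 45.5%. Without dKO-N 2, Rab3c was lower (-0.42, adjusted p = 0.00785; 0.0408 without dKO-E 2) and Vamp2 higher (0.51, adjusted p = 0.039) in dKO-E. Slc17a7 differed between the knockouts by -0.38 (95% interval -1.04 to 0.28, adjusted p = 0.551), Syt4 by 0.05 (-0.21 to 0.31, adjusted p = 0.865) and Pclo by 0.02 (-0.16 to 0.19, adjusted p = 0.94). Driver and time of deletion come together in this comparison and cannot be told apart, and Y-linked counts of 100 or more were present only in dKO-E 3 and 4.

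Other genes of release and of the vesicle cycle were read from 3 lists. Of 43 further genes of the release machinery 33 were tested. By edgeR 3 of the 33 were higher and 4 lower in dKO-N, beside 5.04% and 6.29% of all genes tested. In dKO-E 4 were higher and 5 lower, beside 10.1% and 10.1% of all genes. With library totals these were 4 higher and 3 lower in dKO-N, beside 760 and 554 of all genes. In dKO-E they were then 5 higher and 1 lower, beside 1988 and 701 of all genes. Without control 1 and 3 they were 2 higher and 3 lower in each knockout. All genes then gave 299 higher and 457 lower in dKO-N, and 558 and 657 in dKO-E. The synaptotagmin Syt6 rose in dKO-N from 52.7 to 66.7 CPM over the control libraries to a range of 129.6 to 185 CPM (log2 fold change 1.35, edgeR adjusted p = 1.53e-09). It also rose in dKO-E (0.40, adjusted p = 0.0286; lost in 5 leave-outs, adjusted p = 0.0714 to 0.109), less than in dKO-N by the direct test (-0.95, adjusted p = 1.86e-05). Syt9, a fast calcium sensor, rose in dKO-N (0.95, adjusted p = 2.06e-05) and dKO-E (1.06, adjusted p = 4.47e-07). Rims4, a short RIM protein, fell in dKO-N (-1.01, adjusted p = 0.000286) and also in dKO-E (-0.49, adjusted p = 0.0327; lost in 6 leave-outs, adjusted p = 0.0503 to 0.122). Dmxl2 (rabconnectin-3) fell in dKO-N (-0.41) and dKO-E (-0.55). Snap23, a SNARE of many tissues, rose in dKO-N (0.71, adjusted p = 0.0397; lost in 6 leave-outs, adjusted p = 0.0508 to 0.573). Stxbp6 (amisyn), an inhibitor of SNARE assembly, rose in dKO-E (0.86, adjusted p = 3.68e-05), as did Rab3ip, an exchange factor of Rab GTPases (0.47, adjusted p = 0.029; lost in 6 leave-outs, adjusted p = 0.0523 to 0.115). Of these calls 5 of 7 in dKO-N and 4 of 9 in dKO-E held in each leave-out.

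Vesicles are retrieved after fusion by clathrin and dynamin. Of 33 endocytosis genes 1 was higher and 7 lower in dKO-N, beside 5.04% and 6.29% of all genes tested. In dKO-E 5 of the 33 were higher and 8 lower, beside 10.1% and 10.1% of all genes. With library totals 2 were higher and 6 lower in dKO-N, beside 760 and 554 of all genes. In dKO-E 5 were then higher and 6 lower, beside 1988 and 701 of all genes. Without control 1 and 3 there were 5 lower in dKO-N, where 299 of all genes were higher and 457 lower. In dKO-E 3 were then higher and 7 lower, beside 558 and 657 of all genes. Cltb, a clathrin light chain (-0.68 and -0.60), Snap91 (AP180, -0.57 and -0.49), Ap3b2 (-0.50 and -0.57) and Dnm3, a dynamin (-0.40 and -0.61), fell in both, and Dnm1, the neuronal dynamin, fell in dKO-N (-0.53, edgeR adjusted p = 0.00266). The Cltb call in dKO-N was lost without dKO-N 4 (adjusted p = 0.094). Ston2 (stonin 2), the adaptor that recovers synaptotagmin 1, ranged over 11.66 to 21.8 CPM in control, 21.9 to 30.8 for dKO-N and 36.5 to 47.3 for dKO-E. It rose in dKO-N (0.70, adjusted p = 0.0205) and dKO-E (1.39, adjusted p = 1.72e-07), though in dKO-N not without control 3 or 4 or dKO-N 2 (adjusted p = 0.0667 to 0.0939). The lipid phosphatase Synj2 (1.48, adjusted p = 0.00115) and the endophilin gene Sh3gl3 (0.51, adjusted p = 0.00028) rose in dKO-E. The vesicular proton pump, which energises transmitter loading, had 15 genes tested. In dKO-N 0 passed by edgeR and 0 by DESeq2. At an unadjusted edgeR p under 0.05 there were 3 of the 15, beside 2561 of all 11076 genes tested. In dKO-E 1 rose, Atp6v1b2, a catalytic-sector subunit, at 66.4 to 75.9 CPM in control and 91.4 to 104 CPM in dKO-E (0.45, adjusted p = 0.00191), a call lost without control 1 and 3.

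In the control libraries, levels per exonic kb ran from 0.491 ± 0.142 CPM (Vamp1) to 158 ± 17.5 CPM (Syt1; SD, n = 4). Erc2 at 145 ± 4.94, Ppfia2 at 108 ± 4.76 and Rims1 at 104 ± 8.92 CPM per exonic kb followed. Syt1 and Erc2 lay within 1 SD of Syt1 of each other, as did Ppfia2 and Rims1 within 1 SD of Rims1. Per kb of the whole gene the order differed, led by Vamp2 at 20.3, Cplx2 at 16.7, Rab3a at 16.6 and Syt4 at 16.3 CPM per kb. Whether introns were counted is not stated, so neither order is a ranking of mature mRNA. Of the 4 genes that led per exonic kb, Syt1 fell in both knockouts, Erc2 fell in dKO-E, and Ppfia2 and Rims1 did not pass against control.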

How the data were processed

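Each of 12 libraries had 1 table of whole-number gene counts, deposited by the authors without normalization. STAR, UMI-tools and HTSeq with build mm10 are named in the submitters' processing notes; the sources used here do not give versions, annotation, strand or feature settings. Gene names and exon lengths came from GENCODE M21, which matched 51719 of 51912 identifiers. Lines that name no gene (11.1% to 14.8% of reads) stayed out.

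Groups came from the sample labels. Counts were scaled with TMM, filtered with filterByExpr (minimum count 10; 11076 genes and 99.05% of counts kept) and tested with edgeR 4.0.16 (robust quasi-likelihood fit of all 12 libraries, term for group, 9 residual degrees of freedom). All adjusted p-values for genes in the text are Benjamini-Hochberg values of that edgeR test over all 11076 genes, with a threshold of 0.05, unless an alternative is named. Standard errors and 95% intervals are of the log2 fold change; folds are its antilog, CPM values are TMM-scaled, and ± is the SD of 4 libraries. The common biological coefficient of variation was 10.6%, and all pairs of a group's libraries differed by more than counting noise (chi-square over degrees of freedom 1.62 to 5.99). Tools were R 4.3.3, limma 3.58.1, DESeq2 1.42.0, Python 3.11.15, pandas 2.3.3, SciPy 1.17.1 and matplotlib 3.10.9, and the fit was tested on simulated data.

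The members, lists and rules were chosen with earlier results of these data known. Members were named with per-library values if they passed in 1 of the 3 comparisons and were among the 12 with the largest log2 fold change at an average log2 CPM of 3 or more, or were a family's leading counterpart; others are given by range. From each further list up to 3 genes that passed in each direction were named, except 1 gene that is not reported here. Alternatives were other scalings, DESeq2, no filter, a fit of only the compared groups, a replicate block, thinning to 722080 counts, and leaving out libraries.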

Additional observations from a re-analysis of the deposited data

Results flagged for a closer look

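In 6 of 147 gene-by-group sets of 4 libraries, 1 library stood apart from the other 3 by Dixon's criterion, which chance alone gives in about 1 of 20 sets. Cplx1 was at 37.4 CPM in control 1 against 47.5 to 48.5 CPM in the other controls, Sv2a at 49.4 CPM in control 1 against 63.4 to 64.8 CPM, and Sv2b at 113.0 CPM in control 1 against 84.2 to 88.1 CPM. Control 1 is one of the control libraries whose H3f3a level lay below that of the knockouts. In dKO-N 4, Rims3 was at 31.5 CPM, and the others held 46.9 to 48.5 CPM. In dKO-E, Syn2 reached 135.9 CPM in library 4 with the others at 126.8 to 127.8 CPM, and Syt3 reached 25.01 CPM in library 3 with the others at 16.6 to 17.9 CPM.

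The direct comparison of the knockouts passed at 3 of the 49 genes (6.12%), where 6.84% of all genes passed. Of these 3 edgeR calls 0 held in every leave-out of a single library, and DESeq2 called 1 of the 49. At an unadjusted edgeR p under 0.05 there were 11 of the 49, beside 2436 of all 11076 genes tested. The log2 difference of dKO-E from dKO-N was 1.00 for Syt13, 0.62 for Unc13c and -0.28 for Ppfia2.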

How the results depend on the processing

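None of the results tried changed sign where it had passed the test, over 21 alternatives. Members called in dKO-N numbered 12 to 18 as each library was left out, beside 972 to 1298 of all genes. Those in dKO-E numbered 15 to 25, beside 1699 to 2753 of all genes. Thinning all libraries to the shallowest left 9 members in dKO-N, with 746 genes in dKO-N, 1203 in dKO-E and 284 between the knockouts. Without dKO-E 3 and 4, the libraries with Y-linked counts, 13 members passed in dKO-E, with 1225 genes in dKO-E and 199 between the knockouts. Without control 1 and 3 there were 756 genes in dKO-N and 1215 in dKO-E. These alternatives use fewer counts or libraries.

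Between the knockouts the 3 members became 1 with DESeq2 (507 genes in place of 758). They became 0 in a fit of those groups alone (488 genes), after thinning, and without the libraries with Y-linked counts. At an unadjusted edgeR p under 0.05, 9, 9 and 8 members passed in these fits, beside 2052, 1438 and 1708 of all genes. Leaving out 1 library gave 0 to 5 members and 300 to 1036 genes. Without dKO-N 4 or dKO-E 1, 3 or 4 there were 0 members (8 to 11 unadjusted, beside 1748 to 2302 of all genes). Without dKO-N 4, 300 genes passed, and without dKO-E 3 or 4, 476 and 421 genes did. With a replicate block 15, 16 and 1 members and 1065, 1974 and 500 genes passed in dKO-N, dKO-E and between the knockouts. Libraries with the same number did not deviate together over all genes (correlations -0.12 to 0.01). A shared effect on few genes would not show in these values, so whether the numbers pair samples was not settled.

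Of values that passed in dKO-E, Syt5 (-0.15) and Cplx1 (-0.76) moved by over 1.5 times after thinning. Erc1 (-0.12), Unc13a (-0.17) and Erc2 (-0.17) did so with library totals. Without dKO-N 4, Slc17a7 (-0.66) and Vamp2 (-0.31) in dKO-N also moved by over 1.5 times, as did Syt13 between the knockouts (0.46). The cause was not tested. Depth limits the low genes most. At 3 counts the shallowest library, dKO-N 1, reaches 4.15 CPM. Doc2b held 3 counts in dKO-N 1 and Syngr3 3 in dKO-N 3. The fewest counts of Vamp1, Syt17 and Slc17a7 were 6, 5 and 6, each in dKO-N 3.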
